A study of Homo sapiens with 8 samples.

Results

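Among the chemokines that draw neutrophils and monocytes, CCL2, CXCL8 and CXCL5 rose in A549 lung cells after exposure to photochemically altered (PCA) pollutants, and CCL2 had the highest fold change of all genes after the primary pollutants without passing the test. The 8 genes described here are CCL2, CXCL8, CXCL5, CXCL1, CXCL2, CXCL3, CCL20 and CX3CL1. They were taken by name from the 18377 genes that had a probe set of their own, and each was read from its 1 probe set. The choice was made with earlier results of these data known, so counts of the 8 beside those of all genes are a description. RNA had been measured on 8 Affymetrix Human Gene 1.0 ST arrays, with 4 groups of 2 arrays each. A549 cells, an established line from a human lung adenocarcinoma used as a model of alveolar type II epithelium, were held at an air-liquid interface for a 4 h exposure, and RNA was taken 9 h later. The primary pollutants were a fresh urban mix of hydrocarbons and nitrogen oxides drawn from an outdoor chamber in the morning, set against control cells that received humidified incubator air at that time. The PCA pollutants were the mix as it stood in the chamber in the evening, aged by sunlight and holding ozone and other secondary products, set against evening control cells in humidified incubator air. The comparisons ask how transcripts of these chemokines answered each mixture and whether the responses differed.

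The methods call the arrays of a group biological duplicates, and each group came from 1 exposure run, so the errors given here measure the spread between cultures of a run and not between runs. Mixture, time of day and run changed together and cannot be told apart. On every array 9 of 9 epithelial marker genes reached a signal of 30. The keratins KRT8 and KRT18 had mean log2 signals of 13.60 and 13.87, and CDH3 the lowest of the 9, at 5.74. The limit of 30 was also reached on every array by 7 of 10 measured leukocyte markers, so it does not tell the cell types apart. Their highest mean was 7.11, for LST1. The leukocyte markers PTPRC, which encodes CD45, and S100A8 were below 30 on every array (mean log2 signals 4.38 and 4.53). The summed signal of 10 measured leukocyte markers was 602 to 658 on the primary and 622 to 643 on the morning control arrays, and 665 to 717 on the PCA and 612 to 656 on the evening control arrays. Of 8 leukocyte markers tested after the PCA pollutants 0 passed in limma. At an unadjusted p under 0.05, 3 were higher, against 14.5% of all genes. They were CD163 at a log2 fold change of 0.33, LST1 at 0.33 and LYZ at 0.19, and CD3E was at 0.17. All genes with a mean log2 signal under 6, as CD163, LYZ and CD3E have, had a median of 0.15. Those of 7 to 8, as LST1 has, had a median of -0.01. Of the epithelial markers 1 fell and 8 did not pass, the 1 being CDH1, which encodes E-cadherin, by 1.11 (adjusted p = 0.000699), with a difference between its responses of -0.70 (adjusted p = 0.0392) that was lost when any 1 of 6 of the arrays was left out. EPCAM was at -0.44, AKR1B10 at 0.17 and AKR1C1 at -0.17. The part of these shifts in the results was not tested. Since the RNA came from whole cultures, fewer cells that express a gene and less of its RNA per cell cannot be told apart.

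Chemokines are small secreted proteins whose gradients guide leukocytes into tissue. CXCL8 (interleukin-8), CXCL5, CXCL1, CXCL2 and CXCL3 carry a glutamate-leucine-arginine motif before their first cysteines. They act through the receptor CXCR2 of neutrophils, and CXCL8 through CXCR1 as well. CCL2 (MCP-1) attracts monocytes through CCR2, CCL20 attracts dendritic cells and lymphocytes through CCR6, and CX3CL1 (fractalkine) is a membrane-bound chemokine for CX3CR1-bearing monocytes and lymphocytes that ADAM10 and ADAM17 release from the cell surface. In airway epithelium these genes are known to be switched on by TNF, IL-1, IL-17, microbes and oxidants, largely through NF-kB and AP-1, and their mRNAs are short-lived.

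The sequence before the start of 6 of the 8 genes was in a table of RefSeq promoters on GRCh38.p14, and is shown because 5 of these genes lie near each other on chromosome 4 and differed in their response. Along that chromosome the chemokine genes run CXCL8, CXCL6, PF4V1, CXCL1, PF4, PPBP, CXCL5, CXCL3 and CXCL2. The 150 bases just before each start are printed 5′ to 3′ on the strand of the gene, and capitals mark matches to the motifs named after them.
CXCL8, chr4:73740419-73740568, strand +: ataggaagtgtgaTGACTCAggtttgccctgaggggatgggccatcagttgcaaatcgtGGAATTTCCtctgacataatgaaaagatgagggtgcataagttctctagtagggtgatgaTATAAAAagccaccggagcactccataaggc
CXCL5, chr4:73998678-73998827, strand -: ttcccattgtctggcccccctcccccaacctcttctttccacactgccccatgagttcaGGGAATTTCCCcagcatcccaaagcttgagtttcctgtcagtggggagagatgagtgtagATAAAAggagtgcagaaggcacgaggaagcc
CXCL1, chr4:73869243-73869392, strand +: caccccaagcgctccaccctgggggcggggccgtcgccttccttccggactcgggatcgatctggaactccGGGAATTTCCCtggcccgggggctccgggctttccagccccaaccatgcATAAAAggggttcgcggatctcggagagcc
CXCL2, chr4:74099196-74099345, strand -: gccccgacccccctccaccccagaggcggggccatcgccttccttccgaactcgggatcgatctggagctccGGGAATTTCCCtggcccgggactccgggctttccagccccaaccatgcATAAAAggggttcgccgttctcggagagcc
CXCL3, chr4:74038690-74038839, strand -: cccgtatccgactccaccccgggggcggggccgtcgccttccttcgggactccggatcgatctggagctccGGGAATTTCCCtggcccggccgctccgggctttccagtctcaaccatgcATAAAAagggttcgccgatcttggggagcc
CCL20, chr2:227813692-227813841, strand +: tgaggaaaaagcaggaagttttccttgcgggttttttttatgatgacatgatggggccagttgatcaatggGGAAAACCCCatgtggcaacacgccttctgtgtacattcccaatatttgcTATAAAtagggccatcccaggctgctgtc

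The kB core GGAATTTCC, a form of the site bound by NF-kB, was present in 5 of the 6 promoters, all but that of CCL20, beginning 91 bases before the start in CXCL8, 90 in CXCL5, 78 in CXCL1 and CXCL3 and 77 in CXCL2. Searched on both strands of the 250 bases before the start, it was found in 0.413% of 35116 promoters. The NF-kB consensus, of which the kB core is a part in CXCL5, CXCL1, CXCL2 and CXCL3, matched in 5 of the 6 (all but CXCL8) and in 5.21% of all promoters. The AP-1 motif TGANTCA matched in CXCL8 alone of the 6, beginning 137 bases before the start, and in 6.57% of all promoters. The C/EBP motif TTGCNNAA matched in CXCL2 alone, farther from the start than the bases shown, and in 9.05% of all promoters. Only exact matches were counted, so a promoter without a match may hold a near one, such as ttgcaaat before the kB core of CXCL8. On the gene strand TATAAA matched in CXCL8 and CCL20 (6.8% of all promoters), and ATAAAA, which overlaps it in CXCL8, matched in CXCL8, CXCL5, CXCL1, CXCL2 and CXCL3 (8.76%). The 150 bases shown were aligned in pairs with gaps allowed. Identical bases numbered 135 of the 150 (90%) for CXCL1 and CXCL2, 133 for CXCL1 and CXCL3 and 132 for CXCL2 and CXCL3. Such matches describe the letters of these stretches and do not show that a factor was bound.

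**Figure D1:**
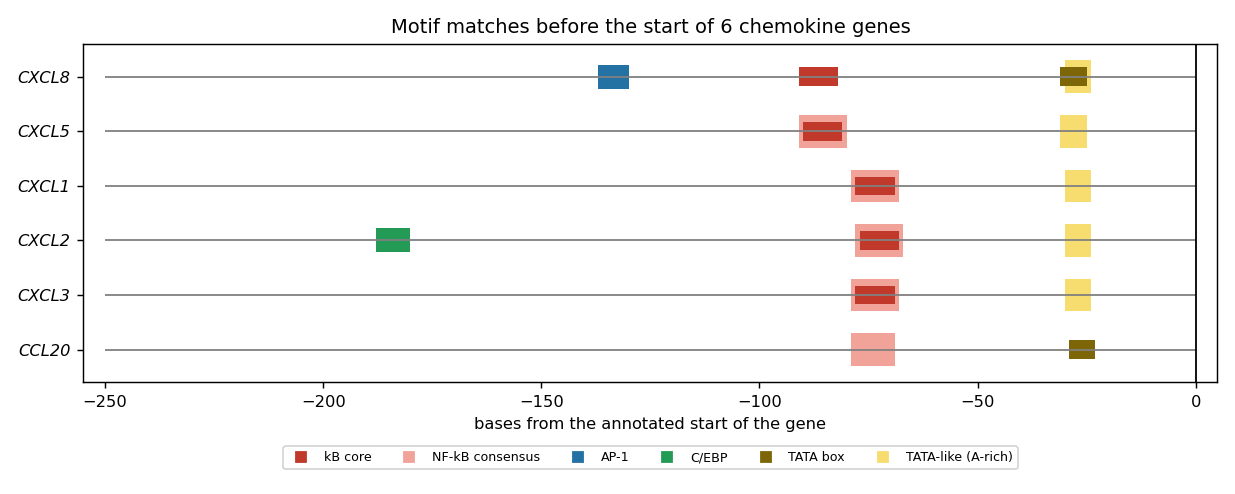
Matches to 6 motifs (coloured boxes) along the 250 bases before the annotated start of 6 chemokine genes, with the distance from the start in bases on the horizontal axis. The kB core lies 91 to 69 bases before the start in the 5 chromosome 4 genes, and the AP-1 match is in CXCL8 alone.

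Values are log2 signals normalized by robust multichip average, and the 4 groups were fitted together in limma. A gene is said to have risen or fallen where its Benjamini-Hochberg adjusted p, taken over all probe sets tested, was under 0.05 and its fold change at least 1.5. All 8 chemokines had a signal of at least 30 on every array, so all were tested in every comparison. Of the 8, 3 rose after the PCA pollutants (CXCL5, CCL2 and CXCL8), none fell and 5 did not pass, against 0.876% of 17470 genes tested that rose, 2.66% that fell and 3.53% that changed. At an unadjusted p under 0.05, 5 of the 8 were higher, against 14.5% of all genes. Their median log2 fold change was 0.41, against -0.0017 over all genes tested. After the primary pollutants 0 of the 8 passed in limma, with 3 at an unadjusted p under 0.05 (CCL2, CXCL5 and CXCL3, all higher). Of the 17381 genes tested there, 0 passed (0%) and 3.27% were higher at that unadjusted p. The median log2 fold change of the 8 was 0.12, against -0.0072 over all genes. A trended and robust prior called CCL2, as did an analysis of variance without adjustment (the methods required a corrected q-value as well), and neither called another of the 8.

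The median over all genes hid a slope with signal on the PCA arrays. Among 3018 genes with a mean log2 signal under 6, the median PCA log2 fold change was 0.15, and among 1469 genes at 10 or more it was -0.13. In the primary comparison the same medians were 0.05 and -0.02. The members are therefore set beside the genes of like signal below. The cause of the slope was not tested.

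CCL2, the monocyte attractant, was higher on all exposed arrays than on all controls, by nearly the same amount after both mixtures. Its log2 signals were 8.70 and 8.74 on the primary arrays, against 7.80 and 7.97 on the morning control arrays. They were 8.84 and 8.55 on the PCA arrays, against 7.68 and 7.76 on the evening control arrays. The exposed groups thus lay apart from the control groups without overlap, while the primary and PCA arrays overlapped each other. CCL2 rose 1.96-fold after the PCA pollutants (95% confidence interval 1.64 to 2.34), or 0.97 ± 0.111 on the log2 scale (SE; adjusted p = 0.00256). After the primary pollutants it was 1.79-fold higher (interval 1.495 to 2.14), a log2 fold change of 0.84 that did not pass (adjusted p = 0.268). That log2 fold change was the highest of the 17381 genes tested, and its unadjusted p of 8.37e-05 was the fourth smallest. The 3361 genes of like signal (mean log2 signal of 8 to 9) had medians of -0.03 after the primary and -0.12 after the PCA pollutants. Between the mixtures the log2 response of CCL2 was 0.13 ± 0.156 larger for PCA (SE; adjusted p = 0.705). The interval of this difference, from -0.23 to 0.50, leaves room for a PCA response up to 1.41 times the primary one in fold, so the test does not show that the responses were alike. Set against the evening controls, CCL2 passed for the primary pollutants as well, at a log2 fold change of 0.99 (adjusted p = 0.0393).

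CXCL8, which encodes the neutrophil attractant interleukin-8, was higher after the PCA pollutants and not after the primary pollutants. Its log2 signals were 7.10 and 7.13 on the primary arrays, against 7.16 and 7.19 on the morning control arrays, so both primary arrays lay just below both of their controls. They were 7.80 and 7.87 on the PCA arrays, against 7.12 and 7.20 on the evening control arrays. The 2 PCA arrays thus stood above all the other arrays. CXCL8 rose 1.60-fold after the PCA pollutants (interval 1.43 to 1.79), or 0.68 ± 0.0704 in log2 (SE; adjusted p = 0.00217), where the 3771 genes of like signal (mean log2 signal of 7 to 8) had a median of -0.01. After the primary pollutants its value was -0.06 ± 0.0704 in log2 (SE; adjusted p = 0.856), with an interval of 0.854 to 1.07-fold. Its PCA response exceeded its primary response by 0.74 on the log2 scale (SE 0.0995, interval 0.51 to 0.97), and this difference passed (adjusted p = 0.0359), the only one of the 8 to do so, against 0.439% of 17540 genes, 0.0912% with a higher and 0.348% with a lower value for PCA. At an unadjusted p under 0.05 the difference was above 0 for CXCL8 and CXCL5, or 2 of the 8, against 6.2% of all genes. It was lost with the replicate number as a block (adjusted p = 0.0852), with no filter on low signal (0.0524), with exchanged controls (0.0514) and without any of the 8 arrays (0.0668 to 0.204), while its size stayed between 0.70 and 0.78. Over all genes, 77 differences passed with all arrays and 0 to 3 when an array was left out.

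**Figure D2:**
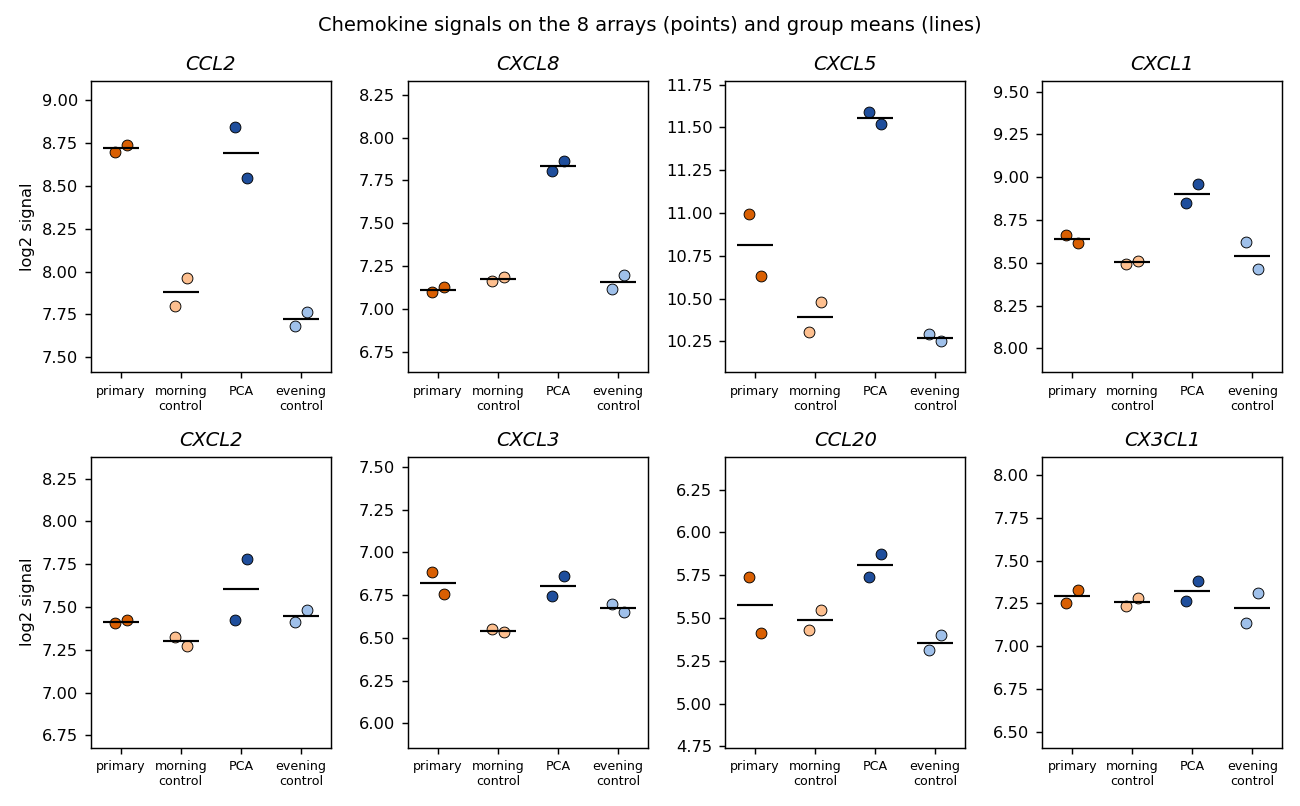
Log2 signal (vertical axis, the same span in each panel) of the 8 chemokine genes on each array (points), with lines at the group means. CCL2 is high on the primary and PCA arrays, CXCL8 on the PCA arrays alone, and CXCL5 is highest on the PCA arrays with the primary arrays between.

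CXCL5, a neutrophil attractant made mainly by epithelial cells, had the largest PCA fold change of the 8, and its primary arrays lay between the controls and the PCA arrays. Its log2 signals were 10.99 and 10.63 on the primary arrays, against 10.31 and 10.48 on the morning control arrays. They were 11.59 and 11.52 on the PCA arrays, against 10.29 and 10.25 on the evening control arrays. Neither exposed group overlapped its control, and the PCA arrays lay above the primary ones. CXCL5 rose 2.43-fold after the PCA pollutants (interval 1.99 to 2.97), or 1.28 ± 0.124 in log2 (SE; adjusted p = 0.0017), which was the seventh highest of 17470 genes. The 1469 genes of like signal (mean log2 signal of 10 or more) had a median of -0.13. After the primary pollutants it was 1.34-fold higher (interval 1.10 to 1.63), a log2 fold change of 0.42 that did not pass (adjusted p = 0.475), with 0.24 without primary pollutants replicate 1. The PCA response exceeded the primary one by 0.86 on the log2 scale (SE 0.175, interval 0.46 to 1.27), which did not pass (adjusted p = 0.0821), though it did when the prior was trended and robust (adjusted p = 0.0122), a minimum signal of 100 (0.0342) and the mean of both controls (0.0195).

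CXCL1, CXCL2 and CXCL3, neutrophil attractants whose promoters are nearly the same in sequence, changed less than CXCL5 and CXCL8 after the PCA pollutants. None of the 3 genes passed after either mixture. Their mRNAs are also alike, so that a probe of 1 gene may take up RNA of another, and their values are uncertain to that extent. CXCL1 had log2 signals of 8.85 and 8.96 on the PCA arrays, against 8.62 and 8.46 on the evening control arrays, without overlap. It was 1.28-fold higher (interval 1.13 to 1.47, adjusted p = 0.0228), past the limit on p and short of that on fold, where genes of like signal had a median log2 fold change of -0.12. Its limma adjusted p rose to as much as 0.0555 under alternatives other than leaving out an array. Leaving out an array moved the PCA value of CXCL1 between 0.28 and 0.44. On the primary arrays CXCL1 stood at 8.66 and 8.61, against 8.50 and 8.51 on the morning control arrays, a log2 fold change of 0.13 (adjusted p = 0.713). Against the time-matched controls CXCL3 was the only one of the 8 with a larger log2 fold change after the primary than after the PCA pollutants, and with exchanged controls its difference turned to 0.12 while those of CCL2 and CX3CL1 turned to -0.18 and -0.0066. Its signals were 6.88 and 6.76 on the primary arrays, against 6.55 and 6.53 on the morning control arrays, and 6.75 and 6.86 on the PCA arrays, against 6.70 and 6.65 on the evening control arrays. The log2 fold changes of CXCL3 were 0.28 (adjusted p = 0.47) and 0.13 (adjusted p = 0.268), and the difference, -0.15 (SE 0.112), did not pass (adjusted p = 0.527). Leaving out an array moved the PCA value of CXCL3 between 0.071 and 0.19. The value with all arrays lies close to the median of 0.11 among the 3693 genes of like signal. CXCL2 had 7.40 and 7.42 on the primary arrays, against 7.33 and 7.27 on the morning control arrays. On the PCA arrays CXCL2 had 7.42 and 7.78, against 7.41 and 7.48 on the evening control arrays, so that 1 of the PCA arrays lay within its controls. Its log2 fold changes were 0.11 (adjusted p = 0.838) and 0.16 (adjusted p = 0.349), and without PCA pollutants replicate 2 the PCA value turned to -0.02. After the PCA pollutants the log2 fold changes of the 3 genes thus spanned 0.13 to 0.36, against 0.68 and 1.28 for CXCL8 and CXCL5.

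CCL20, the attractant of dendritic cells, had the lowest signals of the 8 and met the limit on p but not that on fold after the PCA pollutants. Its log2 signals were 5.74 and 5.87 on the PCA arrays, against 5.31 and 5.40 on the evening control arrays, without overlap. It was 1.37-fold higher (interval 1.13 to 1.65), or 0.45 ± 0.117 in log2 (SE; adjusted p = 0.0344), where the 3018 genes of like signal (mean log2 signal under 6) had a median of 0.15. Under alternatives other than leaving out an array, its limma adjusted p rose to as much as 0.0924, so the limit on p was not met throughout. Leaving out an array moved the PCA value of CCL20 between 0.39 and 0.52. On the primary arrays CCL20 had 5.74 and 5.41, against 5.43 and 5.55 on the morning control arrays, and these overlapped. CX3CL1, the membrane-bound chemokine, was the least changed of the 8 after the PCA pollutants. It had 7.25 and 7.33 on the primary arrays, against 7.24 and 7.28 on the morning control arrays, and 7.27 and 7.38 on the PCA arrays, against 7.13 and 7.31 on the evening control arrays. The CX3CL1 groups overlapped in both comparisons, at log2 fold changes of 0.03 (adjusted p = 0.944) and 0.10 (adjusted p = 0.415), and leaving out an array moved the PCA value between 0.015 and 0.19. The interval of its PCA fold, from 0.933 to 1.23, stays below the limit of 1.5-fold.

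**Figure D3:**
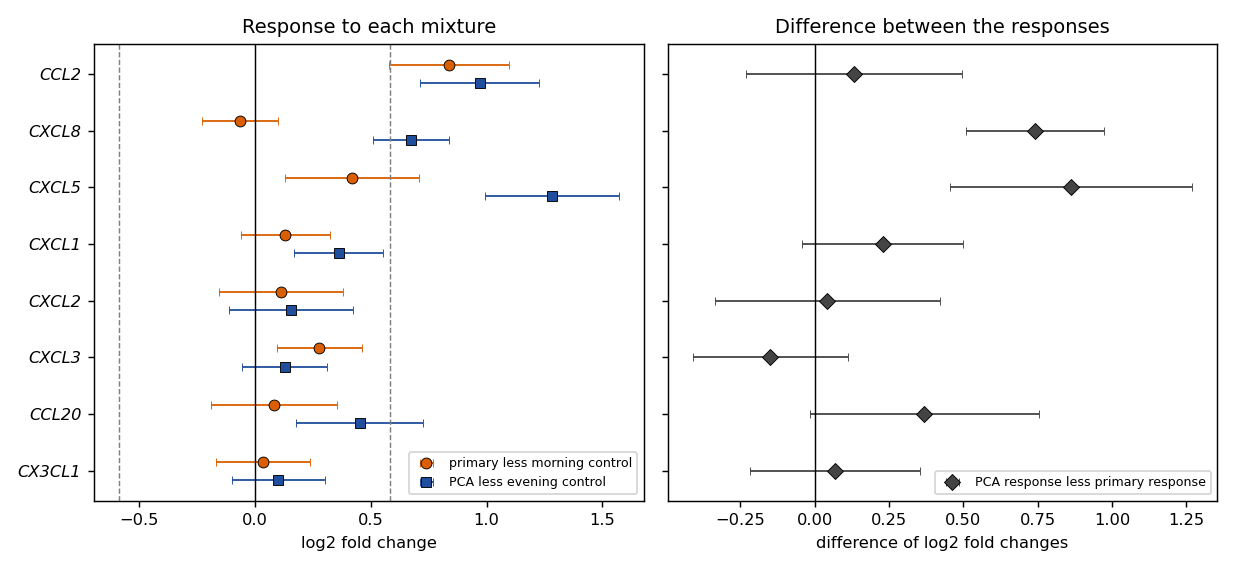
Log2 fold change of the 8 chemokines after each mixture (left, primary mixture as circles, PCA mixture as squares, each against its own control) and the difference between the responses (right, diamonds), with 95% confidence intervals as bars and the 1.5-fold limit as dashed lines. CCL2 is near 0.84 and 0.97 after both mixtures, and only the differences of CXCL8 and CXCL5, at 0.74 and 0.86, have intervals that lie above 0.

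In the PCA comparison the arrays of 6 of the 8 genes lay wholly above their controls and 0 wholly below, against 31.7% and 36.6% of all genes tested. In the primary comparison 5 of the 8 lay wholly above and 1, CXCL8, wholly below, against 17% and 21.7% of all genes tested. The controls were also set against each other, where 0 calls with 2 arrays per group cannot show that they were alike. The evening less the morning control gave log2 differences from -0.16 for CCL2 to 0.15 for CXCL2, and limma called 0 of the 8 and 0 of 17310 genes (0%), with 0 of the 8 and 4.97% of all genes at an unadjusted p under 0.05. The evening arrays lay wholly above the morning ones for 2 of the 8 and wholly below for 3, against 22.1% and 19.7% of all genes.

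Other chemokine ligands were read as a list. Of 36 written down, 32 were measured, and 28 reached the limit on signal in the PCA comparison. Of these 28, 27 did not pass and 1 did. The log2 fold changes had a median of 0.17, close to the medians of 0.15 and 0.11 among all genes with a mean log2 signal under 6 and of 6 to 7. At an unadjusted p under 0.05 in limma, 9 of the 28 were higher and 1 lower, against 14.5% of all genes higher. After the primary pollutants 0 of 28 passed, with a median of 0.11. There 5 of the 28 were higher and 0 lower at that unadjusted p, against 3.27% of all genes higher. The ligand that passed after the PCA pollutants was XCL1, a lymphocyte chemokine (adjusted p = 0.015). Its mean log2 signal was 5.48 after the PCA pollutants and 4.74 in the evening control, which is below the limit of 30, so its fold is not measured on both sides, and the morning control stood higher, at 5.13. Its near copy XCL2 was at 0.22 (adjusted p = 0.559). CXCL6, the neutrophil attractant that lies next to CXCL8 in the gene order above, had a log2 fold change of 0.51 (adjusted p = 0.0165), or short of the fold limit, after the PCA and 0.06 after the primary pollutants. CCL17, a ligand of CCR4, was at 0.44 (adjusted p = 0.0108) and CXCL14, an epithelial chemokine, at 0.27 (adjusted p = 0.0351) after the PCA pollutants. Of 20 chemokine receptor genes tested after the PCA pollutants, 0 passed in limma, and 4 had an unadjusted p under 0.05 (all higher), against 14.5% of all genes. The largest value was that of CCR2, the receptor of CCL2, at 0.58 (adjusted p = 0.0236), just short of the fold limit. The mean log2 signal of CCR2 was 4.97 in the evening control, next to the limit of 30 (log2 4.91), and 5.55 after the PCA pollutants. ACKR1, a receptor that takes up chemokines without signalling, was at 0.30 (adjusted p = 0.0276), the lymphocyte receptor CCR7 at 0.39 (adjusted p = 0.0699) and CXCR1, a receptor of CXCL8 whose evening control mean was below the limit of 30, at 0.36 (adjusted p = 0.0802).

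Genes that govern these chemokines moved in both directions after the PCA pollutants. Among 14 NF-kB subunits and inhibitors 1 rose, 1 fell and 12 did not pass (median log2 fold change 0.01). NFKBIA, the inhibitor that NF-kB itself induces, rose by 0.61 (adjusted p = 0.00273), and like CCL2 it had nearly the same value after the primary pollutants, 0.59 (adjusted p = 0.255). NFKBIZ, an atypical inhibitor that NF-kB needs to activate a subset of its targets, fell by 0.64 (adjusted p = 0.00821). The subunit gene NFKB2 was at 0.56 (adjusted p = 0.00803) and NFKB1 at -0.33 (adjusted p = 0.0221). Among 10 AP-1 and C/EBP genes 1 rose and 9 did not pass (median 0.04). The 1 was JUN, a subunit of AP-1, which after the PCA pollutants rose by 0.75 ± 0.0745 (SE; adjusted p = 0.00184) and was at -0.26 (adjusted p = 0.47) after the primary ones. The difference of its responses, 1.01 (adjusted p = 0.023), passed with all arrays. When any 1 of 6 of the arrays was left out, no gene passed for the difference, JUN included. FOSL1, another AP-1 subunit, was at 0.44 (adjusted p = 0.0119), the stress factor ATF3 at 0.43 (adjusted p = 0.0204) and JUNB at -0.36 (adjusted p = 0.0208).

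Of 28 genes of TNF, IL-1, IL-17 and Toll-like receptor signalling, 1 rose, 2 fell and 25 did not pass after the PCA pollutants (median -0.07). IL1A, an alarmin of epithelial cells, passed (adjusted p = 0.0111), but its mean log2 signals of 4.89 after the PCA pollutants and 4.28 in the evening control both lay below the limit of 30 (log2 4.91), so the size of its change is not given. It entered the test only because an array of this comparison reached that limit, and it was not tested after the primary pollutants, where no array of either group reached that limit. TLR1 fell by 1.13 (adjusted p = 0.0023) and TLR3, a sensor of double-stranded RNA, fell by 0.73 (adjusted p = 0.0373). TLR4, the receptor for lipopolysaccharide, was at 0.53 (adjusted p = 0.00998) and TLR6, a partner of TLR2, at -0.56 (adjusted p = 0.0104). Of 8 regulators of chemokine mRNA decay, 0 passed in limma in any comparison. After the PCA pollutants 1 was higher and 3 lower at an unadjusted p under 0.05, against 14.5% of all genes higher. The share of all genes lower was not counted. The values of the 8 regulators ran from -0.21 for HNRNPD to 0.24 for ZC3H12A, an RNase of inflammatory mRNAs, after the PCA pollutants. KHSRP, which promotes mRNA decay, was at -0.19 and ZFP36L2 at -0.20. All genes with a mean log2 signal of 8 to 9, as KHSRP and ZC3H12A have, had a median of -0.12. Those of 9 to 10, as ZFP36L2 has, and of 10 or more, as HNRNPD and the sheddases have, had medians of -0.13. The sheddases of CX3CL1 did not pass, ADAM17 at -0.45 (adjusted p = 0.00737) and ADAM10 at -0.16 (adjusted p = 0.119). Of 8 leukocyte growth and adhesion genes tested, 1 rose and 7 did not pass. The 1 was the cytokine IL11, which rose by 0.89 (SE 0.176, adjusted p = 0.0148), while CSF1, the growth factor of monocytes, was at -0.44 (adjusted p = 0.0178), IL34, which shares its receptor, at 0.25 (adjusted p = 0.0718) and LIF at 0.28 (adjusted p = 0.0726).

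**Figure D4:**
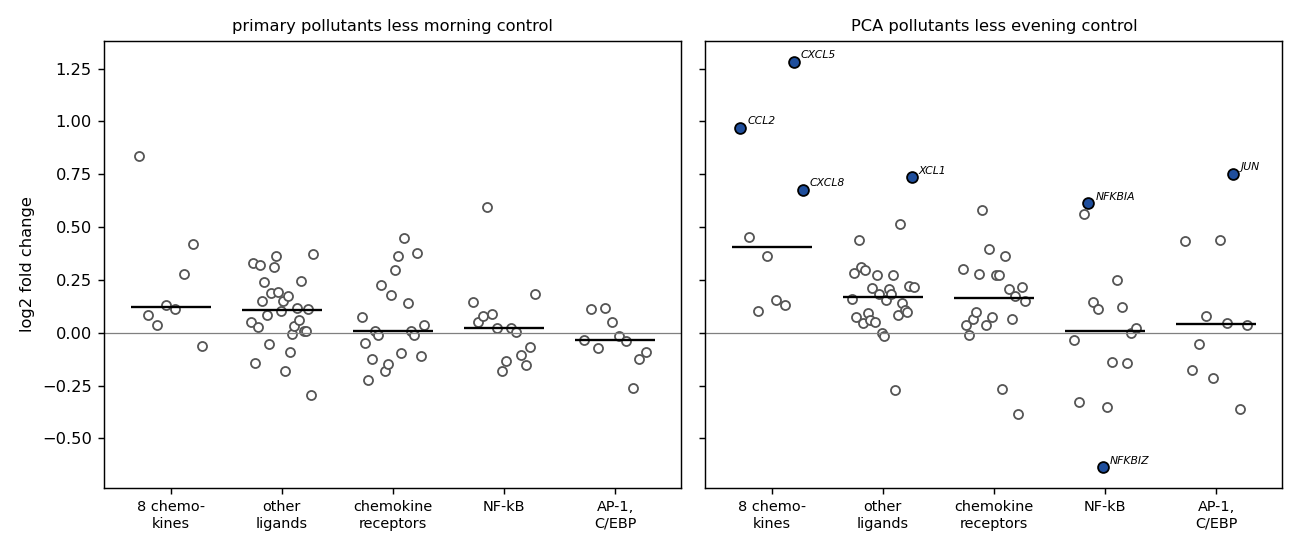
Log2 fold change (vertical axis) of single genes (points) of the 8 chemokines, other chemokine ligands, chemokine receptors, NF-kB genes and AP-1 and C/EBP genes after the primary (left) and the PCA pollutants (right), with filled points for genes that passed the test and a line at the median of each list. No point is filled at left, and at right the 8 chemokines have a median of 0.41 and the other ligands one of 0.17.

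The genes whose pattern lay closest to a called chemokine were found by the root mean square difference over the 8 arrays, after each gene had been centred on its own mean. For CXCL8 the closest was THBD, which encodes thrombomodulin, at 0.0451 log2 units, against a median of 0.314 over all genes. Next came CSGALNACT2, an enzyme of chondroitin sulfate synthesis (0.0753), and the small nucleolar RNA SNORA71C (0.0764). For CCL2 the closest was SLC5A3, a transporter of myo-inositol (0.112), then the olfactory receptor gene OR4A47 (0.155) and the MAP kinase phosphatase gene DUSP5 (0.159), against a median of 0.474. For CXCL5 the order was SERPINE2, a serine protease inhibitor (0.108), PAQR5, a membrane progesterone receptor (0.117), and STAMBPL1, a deubiquitinase (0.129), against a median of 0.516. These genes were picked for their likeness on the same arrays, so their values are a description: THBD had log2 fold changes of 0.62 after the PCA and -0.12 after the primary pollutants, and SLC5A3 had 0.85 and 0.81.

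**Figure D5:**
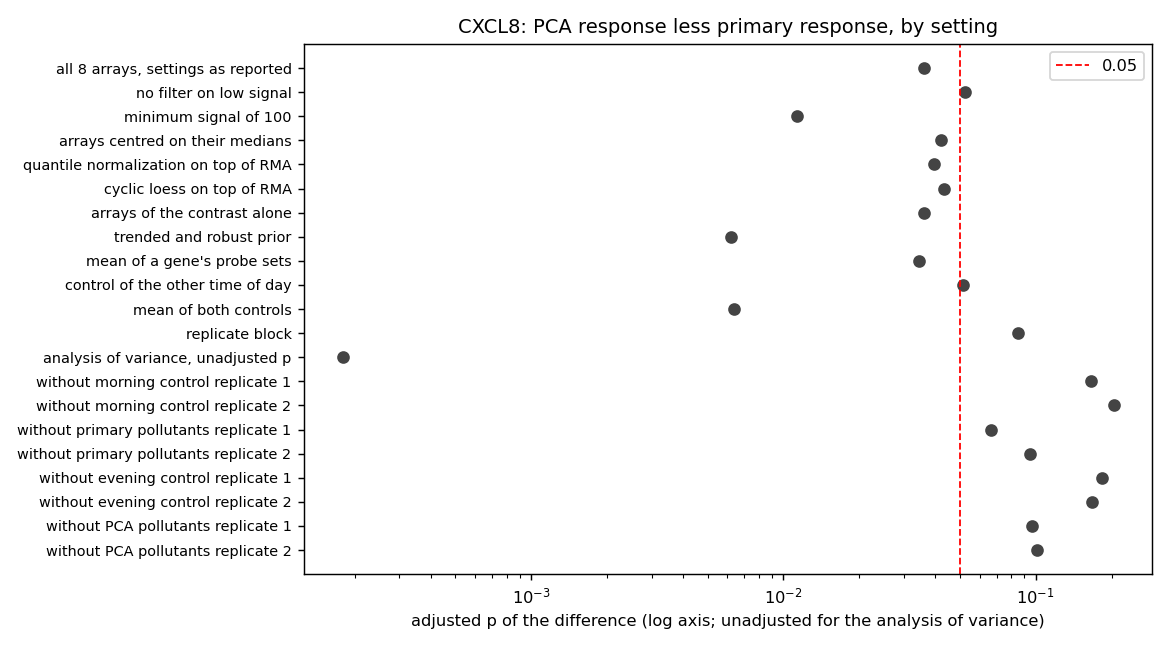
Adjusted p (horizontal axis, log scale; unadjusted for the analysis of variance) of the difference between the PCA and the primary response of CXCL8 under each setting (rows), with 0.05 as a dashed line. The value with all 8 arrays is 0.0359, and the 8 settings that leave out an array lie to the right of the line, at 0.0668 to 0.204.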

How the data were processed

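A549 RNA on 8 Affymetrix arrays was deposited as log2 signals after robust multichip average by the authors, and the submitters' processing notes name Partek 6.4. The values were not normalized again. Of 28869 probe sets, 19310 carry 1 gene symbol, and these give 18377 genes, the brightest probe set on average standing for each gene. Probe sets were tested if any array of the comparison reached a signal of 30, and limma 3.58.1 (R 4.3.3; lmFit, eBayes) was run with a mean per group over the 8 arrays, leaving 4 residual degrees of freedom. The fit was tried on simulated data with independent noise and no slope with signal, which does not test the calls reported here. Calls needed an adjusted p (Benjamini-Hochberg, over all probe sets tested) below 0.05 together with a 1.5-fold change, thresholds that follow the methods. Intervals are 95% confidence intervals of this fit.

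The 8 chemokines and the other gene lists were chosen with earlier results of these data known. All 8 are named, with every called gene of the other lists, their 4 genes of smallest PCA p and the 3 genes closest in pattern to each called chemokine. XCL2, and the mention of NFKBIA and JUN beside CCL2 and CXCL8, were chosen after values were seen. Promoter sequences are RefSeq's on GRCh38.p14, aligned with Biopython 1.88, and plots were drawn with matplotlib 3.10.9. Alternatives covered the filter, normalization, arrays in the fit, prior, probe sets, controls, the replicate block, the test and each array left out. Precision is limited by the number of arrays (median SE of a PCA log2 fold change, 0.091).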

Additional observations from a re-analysis of the deposited data

Results flagged for a closer look

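CXCL8 stood out because its responses to the mixtures differed by the test of the difference itself, at 0.74 on the log2 scale for the PCA less the primary response (adjusted p = 0.0359 in limma). Its arrays also lay on opposite sides of their controls, with both PCA arrays above and both primary arrays below. Of all genes tested, 31.7% lay wholly above in the PCA comparison and 21.7% wholly below in the primary one. The share of genes with both was not counted. The primary difference of CXCL8 was small, at -0.06, and did not pass. No other of the 8 chemokines met either condition, and with 2 arrays per group no array could be tested for standing apart from its group.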

How the results depend on the processing

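After the PCA pollutants CCL2, CXCL8 and CXCL5 passed under every alternative run, and the number of all genes called stayed within 1.5 times the 617 reported. The calls for the primary pollutants and for the difference were less stable. For the primary pollutants, against 0 calls, 1 chemokine (CCL2) and 6 genes in all passed with a trended and robust prior, 1 (CCL2) and 23 with the control of the other time of day, and 1 (CCL2) and 14 with an analysis of variance left unadjusted, which also called 2 genes between the controls. For the difference, against 1 chemokine and 77 genes, 0 and 16 passed with no filter on low signal, 2 and 247 with a minimum signal of 100, 2 and 278 with the trended and robust prior, 0 and 33 with the control of the other time of day, 2 and 208 with the mean of both controls, and 2 and 315 with the analysis of variance, the second chemokine being CXCL5 each time. Leaving out any array gave 0 chemokines and 0 to 3 genes. The causes were not tested.

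Replicate numbers did not pair the arrays, since deviations of same-numbered arrays correlated at -0.12 to 0.05 between groups. With the replicate number as a block, 0 chemokines and 2 genes passed for the difference, and the 3 PCA calls held.

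Small values changed sign. In the difference, CXCL2 turned to -0.00027 with centred arrays, CCL2 to -0.18, CXCL3 to 0.12 and CX3CL1 to -0.0066 with the control of the other time of day, and CCL2 to -0.025 with the mean of both controls. The primary value of CXCL2 turned to -0.032 with the control of the other time of day. Leaving out an array gave -0.079 to 0.25 for CCL20 and -0.0040 to 0.073 for CX3CL1 after the primary pollutants, and -0.024 to 0.34 for CXCL2 after the PCA pollutants. It gave -0.015 to 0.28 for CCL2, -0.14 to 0.22 for CXCL2 and -0.020 to 0.16 for CX3CL1 in the difference, and -0.059 to 0.024 for CXCL8, -0.040 to 0.12 for CXCL1 and -0.12 to 0.050 for CX3CL1 between evening and morning controls. With an array left out, the lone array of its group is assumed to vary like the other groups.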
